A study of Homo sapiens with 6 samples.

Results

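Collagens and laminins are the main structural proteins of the extracellular matrix, and the genes that encode their chains were examined in H226 cells, an established line of human lung squamous carcinoma, after transfection with an antisense oligonucleotide (ASO). The chains were chosen by name: COL, a number, A and a number for collagens, and LAM, then A, B or C and 1 digit, for laminins. The deposited table held 34 such genes among its 17222 gene names. Of these, 33 are described here, and 29 of them had enough reads to be tested. They were divided into 5 fibrillar collagens, 7 collagens of the basement membrane, 11 other collagens and 10 laminins. COL1A2 and COL5A2, the partners of COL1A1 and COL5A1, were not analysed here.

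The comparison asks which genes differ in cells depleted of the long noncoding RNA SWINGN. Both groups were H226 cells collected 48 h after transient transfection, 3 libraries with the control oligonucleotide ASO_CTRL and 3 with ASO_LINC#3, which is directed against SWINGN. A single targeting ASO was sequenced. No value for SWINGN was analysed here, and the knockdown was therefore not checked in these counts. The labels do not say whether the libraries came from separate cultures, so p-values measure only the spread between these libraries.

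A collagen is a rope of 3 polypeptide chains, which may be copies of 1 gene product or come from different genes. Fibrillar collagens such as type I and type III form the tensile fibres of connective tissue, whereas type IV collagen forms the sheet-like network of the basement membrane on which epithelial cells rest. Laminins are cross-shaped trimers of 1 alpha, 1 beta and 1 gamma chain that polymerise in the basement membrane and are bound by integrins. Type XVII collagen, a transmembrane protein, and the laminin that contains LAMA3 and LAMB3 are parts of the hemidesmosome, the junction that fastens squamous epithelium to its basement membrane.

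The reads counted on genes ranged from 3686828 to 10546786 per library, and the chains took from 0.233% to 0.268% of them. ASO_LINC#3 replicate 3 had the fewest reads: the chi-square per degree of freedom of gene counts was 13 and 14 against the other ASO_LINC#3 libraries and 2.50 between those, and it was 6.94 to 11.9 between the ASO_CTRL libraries. Of the squamous markers KRT5, KRT6A and DSC3 were measured and summed to 132 to 162 CPM (counts per 1000000 counts on genes, with TMM factors) in ASO_CTRL and to 90.2 to 97.3 in ASO_LINC#3. They did not move together. DSC3 passed the thresholds given below and KRT5 did not (edgeR, adjusted p of 0.00571 and 0.0192). Both were lower with ASO_LINC#3 (log2 fold changes -0.88 for DSC3 and -0.58 for KRT5). KRT6A, not tested, went the other way, from at most 1 read in a library to 14, 5 and 4 reads. The keratins KRT7, KRT8, KRT18 and KRT19 of simple epithelium summed to 11696 to 12641 CPM in ASO_CTRL and to 7103 to 12434 in ASO_LINC#3, the highest of the latter in replicate 3. Of the fibroblast markers, THY1 and ACTA2 summed to 165 to 179 and 117 to 186 CPM, and of the leukocyte markers CD68 alone, at 1.08 to 1.89 and 2.79 to 6.51 CPM. The other markers listed, those of endothelium included, were not analysed here. The part of these differences in the results below was not tested, and in bulk RNA fewer cells of a type and less RNA per cell cannot be told apart.

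In ASO_LINC#3 libraries 4 chain genes rose and 2 fell. The 2 that fell, COL1A1 and COL3A1, were both fibrillar. Those that rose were COL17A1 and COL6A2 of the other collagens and the laminin chains LAMA4 and LAMB3. Of the 6 tested basement membrane collagens 0 passed the thresholds in edgeR and 0 in limma-voom, while 2 passed in DESeq2 (COL4A1 and COL18A1), beside 8.27% of all tested genes in limma-voom and 10.9% in DESeq2. An unadjusted p below 0.05 in edgeR was reached by 3 of them and by 32.4% of all tested genes. The thresholds were an adjusted p below 0.01 and a log2 fold change beyond 0.5, by edgeR's quasi-likelihood test with Benjamini-Hochberg adjustment over 14660 genes. This adjusted p is meant throughout. The 6 called chains were 20.7% of the 29 tested, beside 7.54% of all tested genes. Those 7.54% were made up of 4.91% higher and 2.63% lower.

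Over the 29 tested chains the median log2 fold change was 0.19, with a range from -1.58 to 2.37, and 15 lay above 0 and 14 below. The median size of the change regardless of sign was 0.49, against 0.31 over all tested genes, whose median change was 0.00 to 2 decimals. The CPM of the 3 ASO_CTRL and the 3 ASO_LINC#3 libraries did not overlap in 17 chains, or 58.6% of those tested, beside 36.1% of all tested genes. At an adjusted p below 0.05, 11 chains passed, 5 higher and 6 lower, beside 16.8% of all tested genes, 9.7% higher and 7.11% lower. Without ASO_LINC#3 replicate 3, 9 of 31 tested chains were called, the 6 named above and COL16A1, COL18A1 and COL4A2, while the calls over all genes went from 1106 to 2616. Without ASO_CTRL replicate 2 only COL1A1, COL17A1 and LAMA4 were called, and the calls over all genes went to 505.

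**Figure D1:**
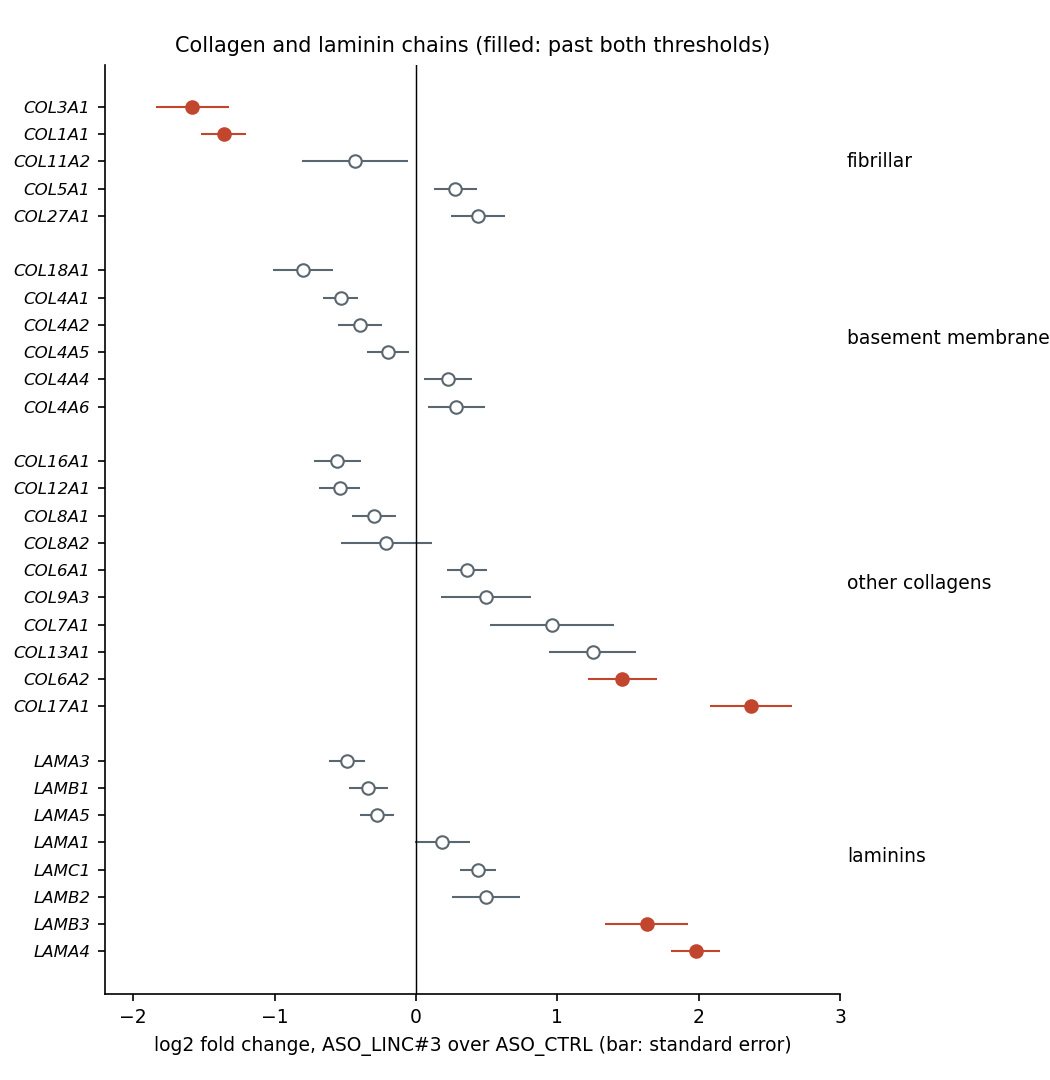
The log2 fold change of ASO_LINC#3 over ASO_CTRL on the x axis is drawn for the 29 tested chains, grouped by class, as points with the standard error as bars, and filled points passed both thresholds. The 2 called fibrillar chains lie at -1.58 and -1.36, no basement membrane collagen is filled, and the 4 chains called higher lie between 1.46 and 2.37.

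COL1A1, the main chain of type I collagen, fell to less than its lowest control value in every ASO_LINC#3 library. It lies on chromosome 17 (hg19, chr17:48261462-48278993, minus strand). Its level was 344, 251 and 367 CPM in ASO_CTRL replicates 1, 2 and 3 and 123, 135 and 117 CPM in ASO_LINC#3 replicates 1, 2 and 3. The groups did not overlap, and the ASO_LINC#3 libraries lay closer together than the controls, with SDs of 8.98 and 61.3 CPM (n = 3 each). The mean was 2.57 times lower, and the log2 fold change was -1.36 ± 0.16 (SE), with an adjusted p of 0.00033. COL1A1, COL4A1 and COL18A1 are among the genes that the study picked using these same libraries, so their direction is not independent evidence. The study drew its picks from genes called at the same thresholds. Here COL4A1 and COL18A1 were not called by edgeR (adjusted p of 0.0141 and 0.0249), which differs from the study's own call. The study also reported, from a separate experiment, that inducing SWINGN in H226 cells raised COL1A1 mRNA.

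COL3A1, the chain of type III collagen, which co-assembles with type I fibres, was called lower as well at a level of few reads. It had 9.29, 11.9 and 11.4 CPM in the ASO_CTRL libraries and 4.85, 2.91 and 2.71 CPM in the ASO_LINC#3 libraries, the last from 10 reads. No ASO_LINC#3 library reached the lowest control, and the log2 fold change was -1.58 ± 0.26 (SE) with an adjusted p of 0.00261. The adjusted p went to 0.0128 without ASO_CTRL replicate 2, to 0.0175 without ASO_CTRL replicate 3 and to 0.0132 without ASO_LINC#3 replicate 2, so that the call rests on each of these libraries.

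The other 3 fibrillar collagens were not called. COL5A1, a chain of type V collagen, which initiates fibril assembly, had 104, 118 and 120 CPM in ASO_CTRL and 166, 126 and 122 CPM in ASO_LINC#3. All 3 ASO_LINC#3 values lay above the controls, 2 of them by a few CPM, and the log2 fold change of 0.28 ± 0.15 (SE) had an adjusted p of 0.227. COL27A1, the chain of type XXVII collagen of cartilage, had 13.6, 11.4 and 10.4 CPM and then 18.2, 13.7 and 15.7 CPM, again with no overlap, and a log2 fold change of 0.44 ± 0.19 (SE) with an adjusted p of 0.14. COL11A2, a chain of type XI collagen, was at 1.18 to 2.98 CPM over all 6 libraries with overlapping groups and a log2 fold change of -0.43 (adjusted p = 0.463). The reads of the 5 fibrillar genes summed to 460 ± 59.1 CPM (SD, n = 3) in ASO_CTRL and 284 ± 26.7 CPM in ASO_LINC#3, and COL1A1 made up 69.8% and 43.9% of these sums. The median log2 fold change of the class, -0.43, is that of COL11A2, a chain of few reads, and 2 chains lay above 0 and 3 below.

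The type IV chains COL4A1 and COL4A2, which form the most widespread type IV trimer, were the most abundant basement membrane collagens, and neither passed the thresholds. They lie head to head on chromosome 13 (hg19, COL4A1 at chr13:110801310-110959504 on the minus strand and COL4A2 at chr13:110958159-111165556 on the plus strand). The 250 bases before each start are given because both genes are read outward from the same stretch. The windows, from RefSeq on GRCh38.p14, are chr13:110307158-110307407 on the minus strand for COL4A1 and chr13:110307034-110307283 on the plus strand for COL4A2, each written 5′ to 3′, and they share 126 bases. Capitals mark matches, on either strand, to 5 motifs: the AP-1 site TGANTCA, the GC box GGGCGG, the CCAAT box, the TATA box TATAAA and the core ACGTG of the hypoxia response element.
COL4A1: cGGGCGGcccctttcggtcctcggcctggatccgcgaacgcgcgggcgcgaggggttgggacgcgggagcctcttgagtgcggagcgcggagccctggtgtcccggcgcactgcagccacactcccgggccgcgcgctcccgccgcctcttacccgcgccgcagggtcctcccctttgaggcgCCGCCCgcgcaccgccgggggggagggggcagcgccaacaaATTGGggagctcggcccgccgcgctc
COL4A2: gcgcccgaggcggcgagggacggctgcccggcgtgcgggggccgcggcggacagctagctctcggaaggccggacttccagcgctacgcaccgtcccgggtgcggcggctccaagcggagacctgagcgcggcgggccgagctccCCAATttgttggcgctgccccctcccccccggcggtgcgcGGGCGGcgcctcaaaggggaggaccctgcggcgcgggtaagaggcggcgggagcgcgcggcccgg
The shared stretch holds 1 CCAAT box and 1 GC box, which both genes carry at the same bases on opposite strands. Among 35116 windows of this length, 32.0% held a CCAAT box, 42.6% a GC box, 10.7% a TATA box, 18.5% the hypoxia response core and 6.57% an AP-1 site. These matches are a description of the letters only.

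COL4A1 had 229, 211 and 195 CPM in the ASO_CTRL libraries and 153, 148 and 138 CPM in the ASO_LINC#3 libraries. The groups did not overlap, and the log2 fold change of -0.53 ± 0.12 (SE) had an adjusted p of 0.0141, the nearest to the threshold of the chains that missed it with a change beyond 0.5. COL4A2 had 256, 256 and 211 CPM and then 183, 152 and 215 CPM, where ASO_LINC#3 replicate 3 lay above the lowest control. Its log2 fold change was -0.40 ± 0.15 (SE) with an adjusted p of 0.0996, and without ASO_LINC#3 replicate 3 it was -0.52 with an adjusted p of 0.00954. DESeq2 called COL4A1 with an adjusted p of 0.0039 and did not call COL4A2. The log2 ratio of COL4A1 to COL4A2 reads within a library was -0.18 ± 0.09 (SD, n = 3) in ASO_CTRL and -0.31 ± 0.31 in ASO_LINC#3, a difference of -0.13 that is smaller than the SD in ASO_LINC#3 (exact permutation test, two-sided, p = 0.7, where 0.1 is the smallest possible).

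COL18A1, the chain of type XVIII collagen, a basement membrane proteoglycan whose end fragment is endostatin, had the lowest log2 fold change of this class. It had 131, 122 and 113 CPM in ASO_CTRL and 61.0, 52.0 and 98.7 CPM in ASO_LINC#3. Every ASO_LINC#3 value lay below the controls, but replicate 3 lay nearer to them than to its own group. The log2 fold change was -0.80 ± 0.21 (SE) with an adjusted p of 0.0249, and without ASO_LINC#3 replicate 3 it was -1.11 with an adjusted p of 7.11e-05. DESeq2 called it with all libraries, at an adjusted p of 0.00447. In the annotation 18.5% of its exon bases (hg19, chr21:46825080-46933634, plus strand) are shared with SLC19A1 on the opposite strand, and the strand setting of the counting is not given in the sources used here, so reads of these genes may be mixed.

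The remaining type IV chains, which form the trimers of specialised basement membranes, overlapped between the groups. COL4A5 had a log2 fold change of -0.20 (adjusted p = 0.385), COL4A6 of 0.28 (adjusted p = 0.359) and COL4A4 of 0.22 (adjusted p = 0.398), and COL4A3 had at most 8 reads in a library and was not tested. COL4A5 and COL4A6 also lie head to head, 340 bases apart on chromosome X, and the log2 ratio of their reads was 2.48 ± 0.30 (SD, n = 3) and 1.97 ± 0.30 (exact permutation test, two-sided, p = 0.2). Summed over the 7 basement membrane genes, the level was 649 ± 46.7 CPM (SD, n = 3) with ASO_CTRL and 473 ± 45.8 CPM in ASO_LINC#3. Their median log2 fold change was -0.30, over 4 values below 0 and 2 above.

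COL17A1 had the highest log2 fold change of all the chains. It encodes type XVII collagen, the transmembrane collagen of hemidesmosomes, on chromosome 10 (hg19, chr10:105791044-105845638, minus strand). Its promoter window is shown because its change was the greatest of the chains (RefSeq, GRCh38.p14, chr10:104085881-104086130, minus strand, capitals as above).
COL17A1: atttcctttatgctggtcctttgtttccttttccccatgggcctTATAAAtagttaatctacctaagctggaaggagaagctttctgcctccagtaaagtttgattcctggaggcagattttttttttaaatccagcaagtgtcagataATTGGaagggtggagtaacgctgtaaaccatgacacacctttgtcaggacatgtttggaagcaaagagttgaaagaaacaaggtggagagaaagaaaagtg
The window holds a TATA box 206 to 201 bases before the start and a CCAAT box further on, and its GC content is 40.4%. COL17A1 had 6.20, 2.75 and 3.24 CPM in the ASO_CTRL libraries, from 16 to 46 reads, and 17.0, 21.6 and 25.5 CPM in the ASO_LINC#3 libraries. The lowest ASO_LINC#3 value was above the highest control. The mean was 5.26 times higher, and the log2 fold change was 2.37 ± 0.29 (SE) with an adjusted p of 0.000453.

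COL6A2 rose while COL6A1, its partner in type VI collagen, did not pass the thresholds. Type VI collagen is a beaded-filament collagen of the zone around cells, built of 3 different chains. Both genes lie on the plus strand of chromosome 21, 93061 bases apart (hg19, COL6A1 at chr21:47401684-47424964 and COL6A2 at chr21:47518026-47552762). The window of COL6A2 (RefSeq, GRCh38.p14, chr21:46097862-46098111, plus strand) is given to set it beside that of COL17A1.
COL6A2: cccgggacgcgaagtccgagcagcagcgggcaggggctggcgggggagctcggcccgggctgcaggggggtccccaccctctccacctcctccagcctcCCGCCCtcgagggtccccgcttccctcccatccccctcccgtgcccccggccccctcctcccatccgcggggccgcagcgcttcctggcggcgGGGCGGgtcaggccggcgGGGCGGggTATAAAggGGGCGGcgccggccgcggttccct
It holds 4 GC boxes and a TATA box 32 to 27 bases before the start, in a stretch of 79.6% GC. COL6A2 had 28.4, 24.4 and 13.2 CPM in ASO_CTRL and 63.2, 53.1 and 63.7 CPM in ASO_LINC#3, and ASO_CTRL replicate 3 was the lowest. The groups did not overlap, and the log2 fold change was 1.46 ± 0.24 (SE) with an adjusted p of 0.00288. The call was lost without ASO_CTRL replicate 2 (adjusted p = 0.0126) and without ASO_LINC#3 replicate 1 (adjusted p = 0.0156).

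COL6A1 had 299, 373 and 309 CPM in ASO_CTRL and 443, 358 and 461 CPM in ASO_LINC#3. The highest control lay above the lowest ASO_LINC#3 library, and the log2 fold change of 0.36 ± 0.14 (SE) had an adjusted p of 0.104. The log2 ratio of COL6A1 to COL6A2 reads was 3.38, 3.91 and 4.53 in the ASO_CTRL libraries and 2.80, 2.75 and 2.85 in the ASO_LINC#3 libraries, so COL6A1 exceeded COL6A2 by less in each of the latter. The difference of -1.15 reached the smallest p that 3 against 3 libraries allow, 0.1 (exact permutation test, two-sided, 0.2 after adjustment over 8 pairs of chains), and so cannot pass 0.05. COL6A3, the third chain of the classic trimer, had at most 7 reads in a library and was not tested.

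Among the other nonfibrillar collagens, COL12A1 and COL16A1, both of the group that decorates fibrils, had values below those of the controls. COL12A1 had 114, 93.8 and 121 CPM and then 84.2, 75.0 and 67.0 CPM, with no overlap, and a log2 fold change of -0.54 ± 0.15 (SE) with an adjusted p of 0.0293. COL16A1 had a log2 fold change of -0.56 (adjusted p = 0.0404), and -0.56 was the lowest of the class. COL13A1, a transmembrane collagen, did not overlap between the groups, at 1.21 to 2.58 and 4.11 to 4.70 CPM, with a log2 fold change of 1.25 ± 0.31 (SE) and an adjusted p of 0.0191.

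COL7A1, the collagen of the anchoring fibrils below hemidesmosomes, was at 3.91, 5.33 and 2.29 CPM and then 4.85, 4.79 and 13.3 CPM. Only ASO_LINC#3 replicate 3 lay clear of the controls, and the log2 fold change of 0.96 ± 0.44 (SE) had an adjusted p of 0.158. COL8A1 and COL8A2, the chains of the network-forming type VIII collagen, overlapped between groups. COL8A1 had 43.2, 55.4 and 48.2 CPM and then 44.2, 41.1 and 33.6 CPM (log2 fold change -0.29, adjusted p = 0.224). COL8A2 had 5.79, 4.13 and 3.72 CPM and then 3.82, 5.31 and 2.17 CPM (log2 fold change -0.21, adjusted p = 0.697). COL9A3, a chain of type IX collagen, was at 1.38 to 2.79 CPM over all libraries and had a log2 fold change of 0.50 (adjusted p = 0.315). Reads of the 11 other collagens summed to 567 ± 36.3 CPM (SD, n = 3) with ASO_CTRL and 665 ± 65.7 CPM in ASO_LINC#3, with COL6A1 making up 57.7% and 63.2% of it, and their median log2 fold change was 0.43.

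**Figure D2:**
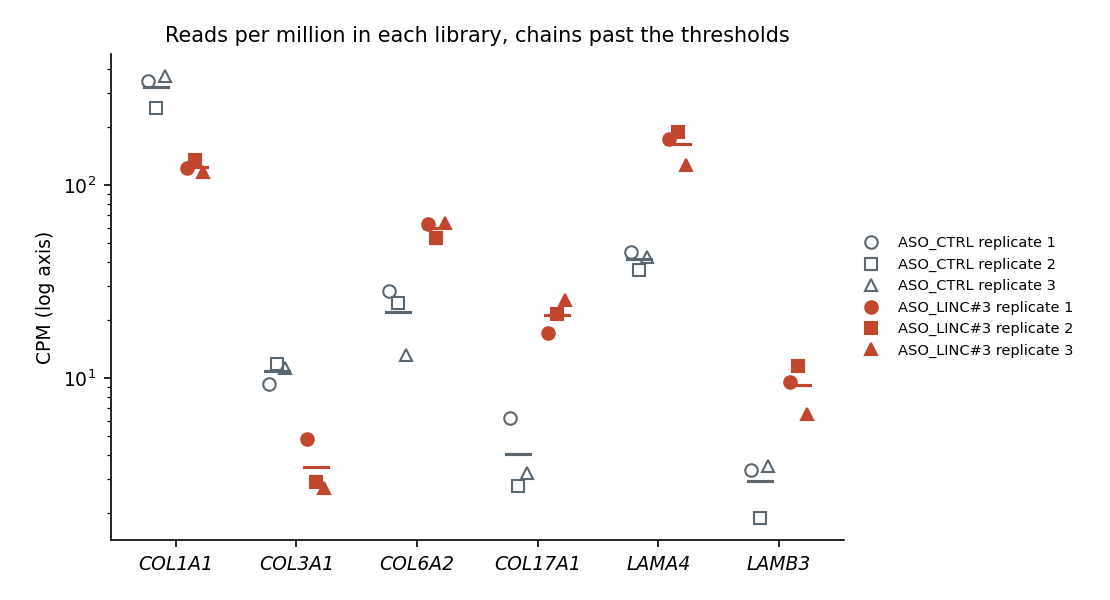
CPM on a log axis are drawn for each library of the 6 chains past the thresholds, open grey symbols for ASO_CTRL and filled red symbols for ASO_LINC#3, with the symbol giving the replicate and the line the mean of 3. For each chain the 2 sets of 3 points do not overlap, from COL1A1 at 117 to 367 CPM down to LAMB3 at 1.89 to 11.6 CPM.

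LAMA4 had the largest rise among the laminins. It encodes an alpha chain known from the basement membranes of vessels, muscle and nerve, and lies on chromosome 6 (hg19, chr6:112429134-112576141, minus strand). Its window (RefSeq, GRCh38.p14, chr6:112254568-112254817, minus strand) and that of LAMB3 (chr1:209651375-209651624, minus strand, 1 of 3 RefSeq starts) are set beside each other as those of called laminins.
LAMA4: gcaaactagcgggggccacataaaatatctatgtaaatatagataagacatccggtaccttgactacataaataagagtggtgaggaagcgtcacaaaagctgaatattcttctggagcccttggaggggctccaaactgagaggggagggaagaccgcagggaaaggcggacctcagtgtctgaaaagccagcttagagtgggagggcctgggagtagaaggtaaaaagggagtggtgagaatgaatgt
LAMB3: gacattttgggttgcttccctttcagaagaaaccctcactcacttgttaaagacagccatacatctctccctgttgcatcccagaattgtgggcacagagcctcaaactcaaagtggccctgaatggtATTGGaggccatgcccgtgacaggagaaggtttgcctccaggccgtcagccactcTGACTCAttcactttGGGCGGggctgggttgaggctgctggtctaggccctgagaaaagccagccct
None of the 5 motifs is written in the window of LAMA4. The window of LAMB3 holds an AP-1 site 67 to 61 bases before the start, a GC box 52 to 47 bases before it and a CCAAT box. The other 2 LAMB3 windows overlap each other and hold 1 GC box, in common, and no AP-1 site. The only LAMA3 window available (chr18:23872770-23873019, plus strand) holds 2 AP-1 sites. Whether it precedes the start of the longest LAMA3 transcript was not checked. Whether any of these matches bears on the changes was not tested.

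LAMA4 had 44.8, 36.5 and 42.6 CPM in ASO_CTRL and 174, 188 and 126 CPM in ASO_LINC#3. Each ASO_LINC#3 library was above every control by a wide margin, and the mean was 3.94 times higher. The log2 fold change was 1.98 ± 0.17 (SE) with an adjusted p of 5.91e-05, the lowest of the chains.

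LAMB3, the beta chain of the hemidesmosomal laminin, rose from a low level. It (hg19, chr1:209788215-209825770, minus strand) had 3.37, 1.89 and 3.53 CPM and then 9.55, 11.6 and 6.51 CPM. The groups did not overlap, and the mean was 3.15 times higher. LAMB3 had a log2 fold change of 1.63 ± 0.29 (SE) and an adjusted p of 0.00415, the nearest to the threshold of the called chains. Its call was kept without ASO_LINC#3 replicate 3 and lost without ASO_CTRL replicate 1 (adjusted p = 0.0144), 2 (0.0163) or 3 (0.0182) and without ASO_LINC#3 replicate 1 (0.0212) or 2 (0.0183), with log2 fold changes between 1.44 and 1.80.

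LAMA3, its alpha chain partner, was not called. It had 47.1, 48.4 and 47.2 CPM in ASO_CTRL and 34.1, 34.2 and 33.1 CPM in ASO_LINC#3. The libraries of each group were within a few percent of each other and the groups did not overlap, while the log2 fold change of -0.49 ± 0.13 (SE) had an adjusted p of 0.0232.

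The chains of the commonest epithelial laminins, LAMA5, LAMB1, LAMB2 and LAMC1, were not called. LAMA5, the main alpha chain of mature epithelial basement membranes, had 488, 486 and 452 CPM and then 409, 352 and 418 CPM, with no overlap and a log2 fold change of -0.27 ± 0.12 (SE, adjusted p = 0.143). LAMB1, a broadly expressed beta chain, had 242, 180 and 199 CPM and then 167, 167 and 157 CPM, again with no overlap (log2 fold change -0.34 ± 0.14, SE, adjusted p = 0.118). LAMC1, the gamma chain of most laminins, had 171, 154 and 140 CPM and then 217, 217 and 195 CPM, and here the ASO_LINC#3 libraries were the higher ones (log2 fold change 0.44 ± 0.13, SE, adjusted p = 0.0377).

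LAMB2, the beta chain of neuromuscular and glomerular basement membranes, had 31.9, 23.4 and 25.2 CPM and then 33.2, 27.2 and 54.8 CPM. ASO_LINC#3 replicate 3 was far above the other libraries, and the log2 fold change of 0.50 ± 0.24 (SE, adjusted p = 0.186) went to 0.17 without it. LAMA1, an alpha chain of early embryonic basement membranes, was at 15.5 to 25.9 CPM over all libraries and had a log2 fold change of 0.19 (adjusted p = 0.546). LAMA2 and LAMC3 had at most 17 reads each in a library and were not tested. The 10 laminins described summed to 979 ± 67.6 CPM (SD, n = 3) in ASO_CTRL and 1037 ± 32.0 CPM in ASO_LINC#3, with a median log2 fold change of 0.31. Their 6 non-overlapping members of 8 tested (75% beside 36.1% of all tested genes) lay on both sides of 0, with LAMA3, LAMA5 and LAMB1 lower and LAMA4, LAMB3 and LAMC1 higher.

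Chain levels were set beside each other as CPM per kb of the longest annotated transcript. Of the alpha chain total, LAMA4 made up 11.1%, 9.38% and 11.3% in the ASO_CTRL libraries and 36.5%, 41.7% and 29.4% in the ASO_LINC#3 libraries. LAMA5 stayed the leading alpha chain in all 6, at 77.0% ± 1.75 (SD, n = 3) and 55.0% ± 6.18, and LAMA3 was at 8.27% ± 0.336 and 5.07% ± 0.197. No library of one group reached the range of the other for these 3 chains. They are parts of the same total, so a higher share of LAMA4 lowers the others, and they are not separate observations. LAMA5 itself was not called (log2 fold change -0.27, edgeR, adjusted p = 0.143). The CPM of the groups did not overlap in 36.1% of all tested genes, and no such figure was computed for shares.

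LAMB1 led the beta chains at 87.2% ± 0.269 (SD, n = 3) and 76.6% ± 4.57. LAMB3 held 1.61% ± 0.411 and 5.69% ± 1.71 of them, so that it remained the least of the beta chains per length. These shares describe the RNA and carry no test, and the first strand was primed with oligo(dT), so reads may not be spread evenly over long transcripts. The longest annotated transcript need not be the one these cells make, and the shares of LAMA3 and other chains would differ with a shorter one.

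**Figure D3:**
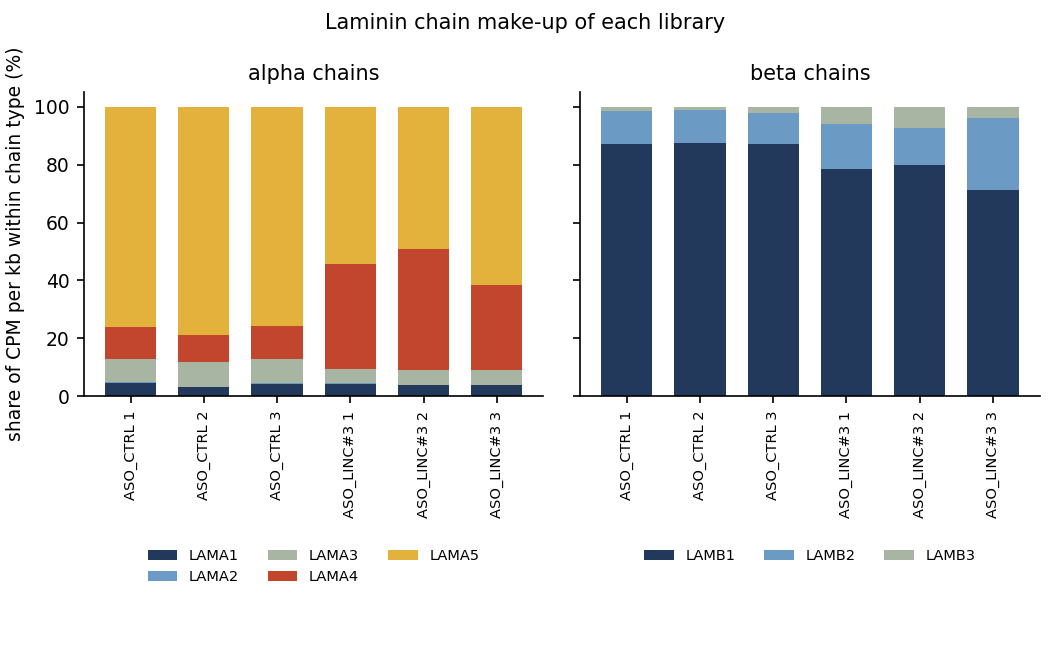
Stacked bars give, for each of the 6 libraries, the share in percent of each alpha and beta chain in the summed CPM per kb of its chain type. LAMA4 takes 9.38% to 11.3% of the alpha chains in ASO_CTRL and 29.4% to 41.7% in ASO_LINC#3, and LAMA5 and LAMB1 lead in every library.

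Ratios of partner chains do not depend on the scaling between libraries, and 8 pairs of chains that can share a trimer were compared. In 4 pairs the log2 ratios of the 2 groups did not overlap. Besides COL6A1 with COL6A2, these were the pairs of LAMC1 with LAMA4, LAMA5 and LAMB1. The latter share LAMC1, itself higher in ASO_LINC#3 without overlap, and are not separate observations. The share over other pairs of genes was not computed, and 36.1% of single tested genes did not overlap. The LAMA4 to LAMC1 ratio was -1.90 ± 0.18 (SD, n = 3) in ASO_CTRL and -0.38 ± 0.22 in ASO_LINC#3, the largest difference of the 8 at 1.52, whereas LAMA5 to LAMC1 went from 1.62 ± 0.09 to 0.90 ± 0.20. LAMB1 to LAMC1 was 0.41 ± 0.16 and -0.36 ± 0.03, so that LAMB1 had more reads than LAMC1 in each control and fewer in each ASO_LINC#3 library. These are reads not divided by length. Per kb of the longest transcript the mean of LAMB1 stayed above that of LAMC1. The means were 36.6 and 19.6 CPM per kb in ASO_CTRL and 29.0 and 26.5 in ASO_LINC#3. Each of the 4 pairs gave p = 0.1, the smallest possible, in the exact two-sided permutation test and 0.2 after adjustment over the 8 pairs. For LAMB2 to LAMC1 and COL8A1 to COL8A2 the differences were 0.03 (exact permutation p = 0.9) and -0.05 (exact permutation p = 1), both smaller than the spread between libraries.

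**Figure D4:**
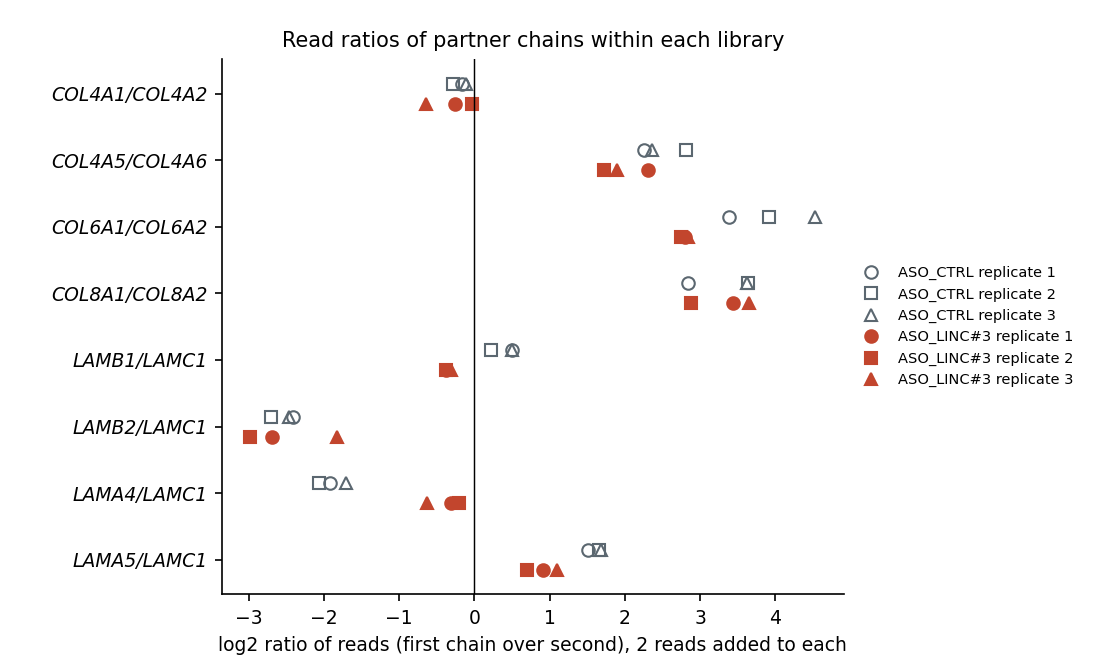
The log2 ratio of reads of 2 partner chains within a library is on the x axis for 8 pairs, with open grey symbols for ASO_CTRL and filled red symbols for ASO_LINC#3. The groups are separate for COL6A1/COL6A2, LAMB1/LAMC1, LAMA4/LAMC1 and LAMA5/LAMC1, and LAMA4/LAMC1 moves from between -2.07 and -1.71 up to between -0.63 and -0.21.

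Of 32 enzymes, chaperones and other genes that make and cross-link collagen with a value, 29 were tested and 5 called, 4 higher and 1 lower, which is 17.2% beside 7.54% of all tested genes, and their median log2 fold change was 0.04. The groups did not overlap in 17 of the 29, or 58.6%, beside 36.1% of all tested genes. With the adjusted p bound at 0.05 the list was split, 10 genes passing, 5 higher and 5 lower. Beside these, 16.8% of all tested genes passed, 9.7% higher and 7.11% lower. P4HA1 and P4HA2, the catalytic subunits of the prolyl hydroxylase that stabilises the collagen helix, rose. P4HA1 had 30.0, 32.9 and 30.4 CPM and then 90.7, 95.8 and 56.1 CPM (log2 fold change 1.39, adjusted p = 0.000982). P4HA2 had 68.8, 67.3 and 73.5 CPM and then 201, 203 and 191 CPM (log2 fold change 1.51, adjusted p = 3.3e-05).

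LOX, which starts the cross-links between collagen chains, had 309, 231 and 261 CPM in ASO_CTRL and 1488, 1541 and 1141 CPM in ASO_LINC#3 (log2 fold change 2.38, adjusted p = 1.42e-05). PCOLCE2, an enhancer of procollagen processing, rose from 0.477 to 1.204 CPM to 1.90 to 5.13 CPM (log2 fold change 2.22, adjusted p = 0.0077). ADAMTS3, a protease that removes the amino-terminal propeptide of procollagens, fell from 10.9, 14.1 and 11.9 CPM to 6.61, 4.96 and 4.07 CPM (log2 fold change -1.19, adjusted p = 0.0058). None of these 5 genes overlapped between the groups. The calls of PCOLCE2 and ADAMTS3 held only without ASO_LINC#3 replicate 3 among the fits that left out 1 library, with adjusted p from 0.0167 to 0.0533 and from 0.0115 to 0.0267 in the others, and that of P4HA1 was lost without ASO_CTRL replicate 3 (0.0104).

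Of 13 tested proteins that assemble with the chains in the matrix and basement membrane, 2 fell, or 15.4% called beside 7.54% of all tested genes, of which 2.63% lower, with a median log2 fold change of -0.03. In 7 of the 13, or 53.8%, the groups did not overlap, beside 36.1% of all tested genes. With the adjusted p bound at 0.05, 4 passed, 1 higher and 3 lower, beside 16.8% of all tested genes, 9.7% higher and 7.11% lower. SPARC, a collagen-binding matricellular protein, had a log2 fold change of -0.63 (adjusted p = 0.00325) from 3488 to 3860.3 CPM in ASO_CTRL and 2331 to 2483 CPM in ASO_LINC#3. EFEMP1, a fibulin, had 489, 537 and 528 CPM and then 349, 291 and 272 CPM (log2 fold change -0.77, adjusted p = 0.00317). Both are also genes that the study picked using these libraries. Neither gene overlapped between the groups, and neither was called without ASO_CTRL replicate 3 or without ASO_LINC#3 replicate 2. SPARC was also not called without ASO_CTRL replicate 1 or ASO_LINC#3 replicate 1, nor EFEMP1 without ASO_CTRL replicate 2, and the adjusted p of these fits ran from 0.0147 to 0.0253.

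Of 11 tested receptors for collagens and laminins, 2 rose and 1 fell, or 27.3% called beside 7.54% of all tested genes (4.91% higher and 2.63% lower), with a median log2 fold change of 0.19. ITGA2, the alpha subunit of a collagen receptor, had 23.4, 24.6 and 28.3 CPM in ASO_CTRL and 240, 257 and 180 CPM in ASO_LINC#3 (log2 fold change 3.14, adjusted p = 3.78e-06). ITGA6, the alpha subunit of laminin receptors and of the hemidesmosome integrin, had 48.1, 66.8 and 54.7 CPM and then 255, 258 and 157 CPM (log2 fold change 1.99, adjusted p = 0.000172). DAG1, which encodes dystroglycan, a laminin receptor, had 183, 199 and 191 CPM and then 120, 112 and 117 CPM (log2 fold change -0.71, adjusted p = 0.00264). DAG1 is again a gene that the study picked using these libraries. No library of these 3 genes lay within the range of the other group. The call of DAG1 held only without ASO_LINC#3 replicate 3 among the fits that left out 1 library, with adjusted p from 0.011 to 0.0209 in the others. ITGB4, the hemidesmosomal partner of ITGA6, had 478, 480 and 450 CPM and then 463, 389 and 576 CPM, with overlapping groups and a log2 fold change of 0.02 (adjusted p = 0.945).

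**Figure D5:**
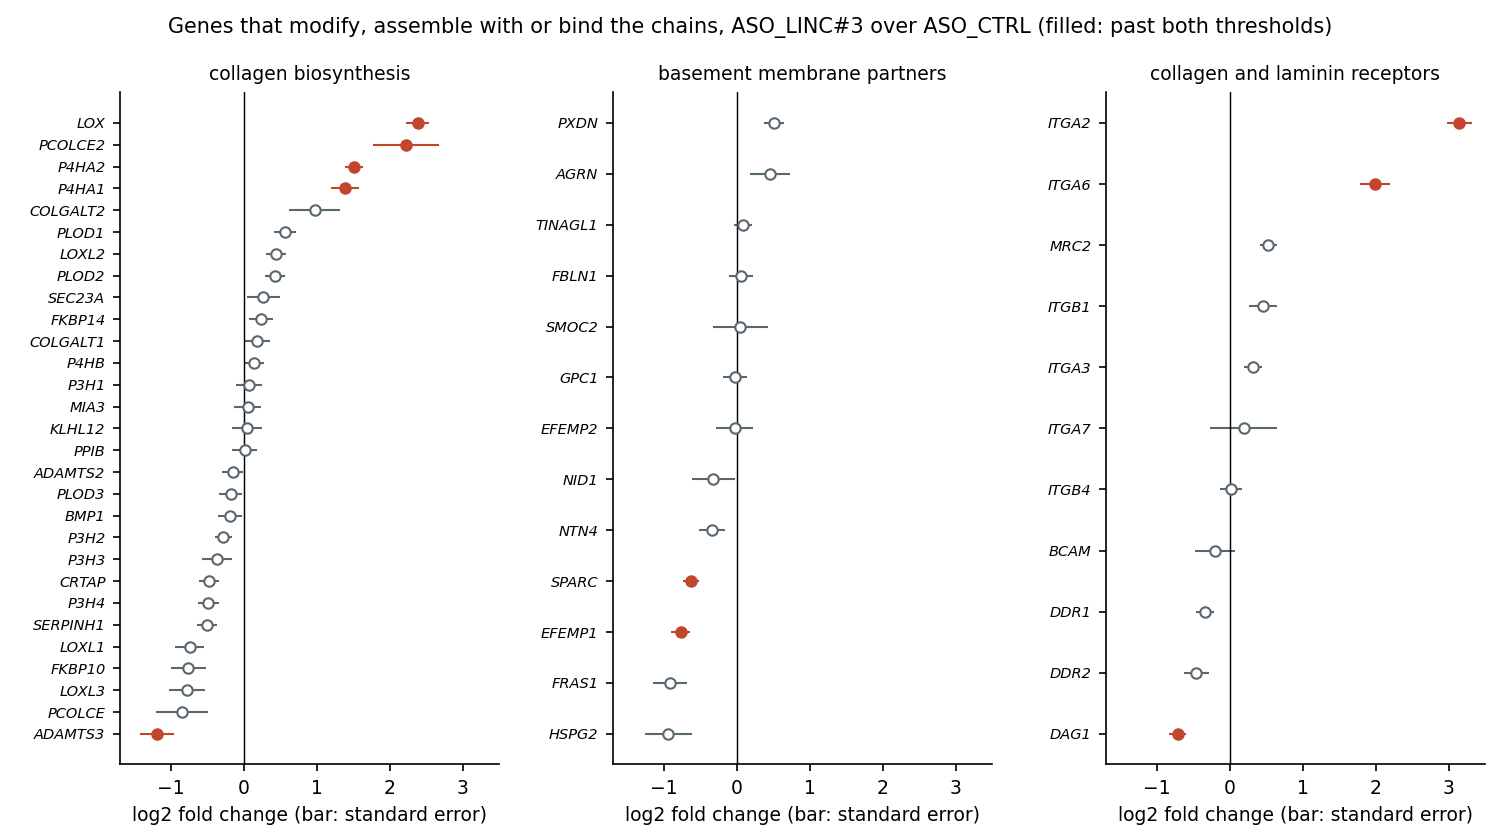
The log2 fold change of ASO_LINC#3 over ASO_CTRL on the x axis, with the standard error as bars, is drawn for the tested genes of collagen biosynthesis, of basement membrane partners and of collagen and laminin receptors, and filled points passed both thresholds. LOX at 2.38 and ITGA2 at 3.14 are the highest of their lists, and the median of each list lies between -0.03 and 0.19.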

How the data were processed

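RNA-seq libraries of H226 cells, 3 with ASO_CTRL and 3 with ASO_LINC#3, were grouped by the titles in the labels. Per the labels and methods, STAR was used against hg19. The authors deposited whole-number read counts for each gene name, neither normalized nor pooled; the counting tool and its strand setting are not given in the sources used here, and the authors' own tests used edgeR. BJ cells are named in the RNA-seq methods, but H226 in the labels, which were followed. Rows of reads assigned to no gene (24.8% to 28.1% of a library) entered neither library sizes nor tests.

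The groups were tested with edgeR 4.0.16 in R 4.3.3 (filterByExpr, TMM, quasi-likelihood F-test, no block) over 14660 genes, with p-values adjusted by the Benjamini-Hochberg method; calls needed an adjusted p below 0.01 and a log2 fold change beyond 0.5. Standard errors were taken from the F statistic. CPM are TMM-scaled and given per library or as mean ± SD. The common biological coefficient of variation was 0.159, and libraries of a group differed by more than sampling noise, so each counted as 1 replicate. Log2 ratios of partner chains were computed with 2 reads added to each. Gene positions, lengths and GC content came from a GENCODE annotation on GRCh37, whose release need not be the authors', and 87.2% of tested genes had both. Promoter windows came from RefSeq (GRCh38.p14) for 26 of 33 chains. Results for 1 further chain found by the naming rule are not reported here. The fit was tested on simulated data.

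The chains, the further gene lists and the rule for naming genes were chosen with earlier results of these data known. The rule names the chains called, the 3 with most reads in each class, their trimer partners, and the chains just inside and outside the threshold; other chains are given by value or range, and of the other lists the called genes, with ITGB4 named after its values were seen. Alternatives were DESeq2 1.42.0, limma-voom (limma 3.58.1), other scalings and filters, an adjusted p of 0.05, no bound on the fold change, the replicate number as a block, removal of trends on GC content and length with splines of 5 degrees of freedom, and leaving out each library.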

Additional observations from a re-analysis of the deposited data

How the results depend on the processing

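COL1A1, COL17A1 and LAMA4 were called in each of the 6 fits that left out 1 library and under each other test, scaling, filter, block and correction tried. The number of called chains was 11 at an adjusted p of 0.05, beside 16.8% of all tested genes, 11 with the correction for GC content and transcript length, which added COL4A1, COL12A1, COL16A1, COL18A1 and LAMA3, 8 with DESeq2 and from 3 to 9 when 1 library was left out. All tested genes called numbered 2465 at an adjusted p of 0.05, 1748 with that correction, 1597 with DESeq2 and from 359 to 2616 without 1 library. Collagen biosynthesis genes called were 10, 9, 6 and from 2 to 9 in the same order. Basement membrane partners called were 4 at an adjusted p of 0.05 and from 0 to 4 without 1 library, and receptors called were from 2 to 5 without 1 library. The cause of these differences was not tested.

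Replicate numbers are shared by the groups, but libraries of the same number did not deviate together (correlations of 0.06, -0.15 and -0.19 for numbers 1, 2 and 3, and 1 of 3 controls closest to its own number). With the replicate number as a block 5 chains were called, LAMB3 having an adjusted p of 0.0111, and 656 genes in all, with 0 basement membrane partners, 4 biosynthesis genes and 2 receptors.

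Leaving out 1 library moved the median log2 fold change of the laminins between 0.0207 and 0.43, that of the other collagens between 0.32 and 0.51, and the log2 ratio of the summed laminin CPM between 0.0495 and 0.14. COL8A2 ranged from -0.52 to 0.01 without 1 library, and went from -0.21 to 0.00347 without ASO_CTRL replicate 1 and to 0.00595 without ASO_LINC#3 replicate 3. The median log2 fold change of all genes was -0.0232 with upper quartile scaling and 0.0142 with library size only, and the other scalings lay between these. The standard error of the log2 fold change was 0.26 for COL3A1, with 10 reads in 1 library, and was largest among the chains for COL7A1, at 0.44. LAMA2, LAMC3, COL4A3 and COL6A3 were not called without the filter on low counts either.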
